A study of Homo sapiens with 20 samples.

Results

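The genes examined here encode the nuclear subunits of oxidative phosphorylation (OXPHOS), the 5 enzyme complexes of the inner mitochondrial membrane. They were chosen by name and a minimum of reads, with earlier results of these data known. The names are those of protein-coding nuclear genes in GENCODE whose symbols begin with NDUFA, NDUFB, NDUFC, NDUFS or NDUFV and a number, UQCR, COX4 to COX8 or ATP5, together with CYC1 and SDHA to SDHD. Of 19595 protein-coding genes with a matched transcript, 90 fitted these names, and 79 of them held 500 or more reads over the 9 DMSO libraries. Those 79 are 34 genes of complex I, 4 of complex II, 10 of complex III, 12 of complex IV and 19 of complex V, with NDUFA4 and COX7A2L counted under complex IV. The other 11 fell below the minimum. NDUFA3 and NDUFA6 had 10 DMSO reads each, COX6B2 had 77, NDUFA4L2 15 and COX4I2 1, while COX6A2, COX7A1, COX7B2, COX8C and the readthrough genes ATP5MF-PTCD1 and NDUFC2-KCTD14 had 0.

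Complexes I and II pass electrons from NADH and succinate to coenzyme Q, complex III passes them on to cytochrome c and complex IV to oxygen. Complexes I, III and IV pump protons, and complex V, the ATP synthase, uses the gradient to make ATP. A few subunits are encoded in the mitochondrial genome, while those studied here are transcribed in the nucleus and imported.

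The libraries came from MM1.S, a human multiple myeloma cell line of wild-type genotype, given 10 nM dCBP-30 or DMSO for 2, 6 or 24 h, with 3 libraries in each of the 6 groups. dCBP-30 is a degrader of the acetyltransferases CBP and p300, cofactors that act at enhancers. In every one of these groups the uridine analogue 4sU was present for the last 1 h, so that RNA made in that hour carries T-to-C changes when sequenced (SLAM-seq), and 2 further libraries received no 4sU. Total reads of a gene thus measure its RNA pool and T>C reads the RNA labelled in the last hour. T>C reads are part of the total reads, so these measures are not independent. A single cell line was studied, and nothing in the labels says whether replicates were separate cultures, so that p-values measure only the spread between these samples.

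Libraries held 12440700 to 18729086 gene reads. In the labelled libraries 4.71% to 8.62% of them were T>C reads, against 0.794% and 0.809% without 4sU. The ratio of counted conversions to T>C reads was 1.43 to 1.51 in the 24 h dCBP-30 libraries and 2.12 to 2.51 in the other labelled libraries. Without 4sU it was 0.928 and 0.918. A ratio below 1 means that it is not strictly the number of conversions in a T>C read. Levels are given as RPM, reads in 1000000 reads of a library whose size was corrected by TMM, a factor that aligns the bulk of genes between libraries. All 8 plasma cell markers looked for lay at 99.1 RPM or higher in every DMSO library, and 8 markers of other blood cells or tissues at 11.0 RPM or lower, so the libraries carried the markers of the labelled cell type. The TMM factors were 0.87 to 0.93 under DMSO and 1.29 to 1.32 at 24 h of dCBP-30. Counts are of bulk RNA, in which fewer cells and less RNA per cell cannot be told apart.

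Reads of OXPHOS genes varied together between replicates. At 6 h 70 of the 79 genes were lowest among the dCBP-30 libraries in replicate 3, at 2 h 66 were lowest among them in replicate 2, and at 24 h 67 were lowest among the DMSO libraries in replicate 1. Summed over the 79 genes, the dCBP-30 libraries at 6 h held 11964 RPM in replicate 3 and up to 16727 RPM in the others. The DMSO libraries at 24 h held 17292 RPM in replicate 1 and up to 22406 RPM in the others. Counts of called genes are given below also with single libraries left out. Medians and most changes of single genes in total reads are given with all libraries only.

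In total reads most OXPHOS genes lay a little below genes at large, in a narrow band. The median log2 fold change of dCBP-30 over DMSO took the values -0.19, -0.41 and -0.50 at the successive times, while the median over all 12272 genes tested was -0.0026, 0.02 and 0.05. Of the 79 genes, 71, 75 and 70 lay below 0 at the 3 times. The middle 50% of the OXPHOS genes spanned 0.42 log2 units at 24 h, against 1.46 for all genes tested, which also include genes with far fewer reads. Without TMM factors the distance from the median of all genes was -0.18, -0.44 and -0.55. This change of scaling moves all genes nearly alike, so it cannot test that distance. It did change the sign at 24 h: without TMM factors the median of the OXPHOS genes was -0.08, -0.10 and 0.03. Their summed share of all gene reads was 1.85% ± 0.21 under DMSO and 1.89% ± 0.019 under dCBP-30 at 24 h (SD, n = 3), and so was not lower. The lower values at 24 h are thus relative to the median gene and to the TMM scaling, not to the sum of all gene reads.

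**Figure D1:**
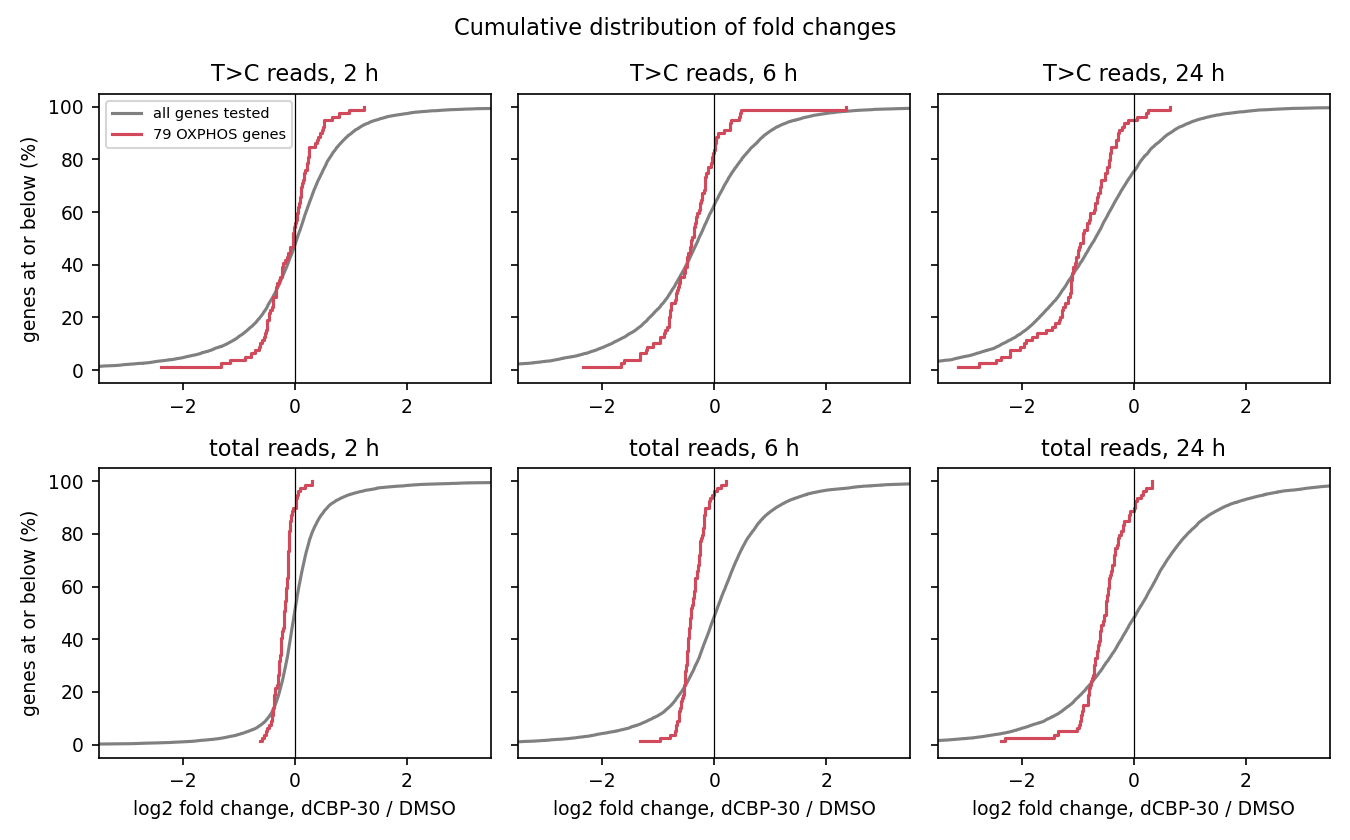
Cumulative share of genes (y axis, percent) at or below a log2 fold change of dCBP-30 over DMSO (x axis) for T>C reads (top) and total reads (bottom) at 2, 6 and 24 h. The red curve of the 79 OXPHOS genes is steeper than the grey curve of all genes tested, and in total reads its middle lies to the left of 0 at all 3 times, with medians of -0.19, -0.41 and -0.50 (-0.08, -0.10 and 0.03 without TMM factors).

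A gene was called when the edgeR quasi-likelihood test gave an adjusted p under 0.05 and the change exceeded 2-fold. By this rule 0 of 79 OXPHOS genes were called lower in total reads at 2 h (1.25% of all genes), 1 at 6 h (8.69%) and 5 at 24 h (16.1%). None was called higher, where 0.464%, 7.47% and 15.0% of all genes were. At 2 h an unadjusted p under 0.05 was reached by 9 of the 79 genes, all lower, and DESeq2 also called 0. No gene was higher at 6 or 24 h at an unadjusted p under 0.05 or by DESeq2. With the adjusted p alone, 0 genes were lower at 2 h (2.7% of all genes), 30 at 6 h (21.5%) and 46 at 24 h (29.8%), and 0 were higher, against 1.54%, 18.8% and 28.7% of all genes. At 24 h the 46 make up 58.2% of the OXPHOS genes. The median level in total reads was 165 RPM over the OXPHOS genes and 20.9 RPM over all genes tested, so these shares do not compare genes of equal depth. The counts also depended on the scaling and on single libraries. Without TMM factors 5 were lower and 4 higher at 6 h, and 9 were lower and 15 higher at 24 h. Of all genes, 11.9% were lower and 36.1% higher at 6 h under that scaling, and 17.0% and 49.5% at 24 h. Without dCBP-30 replicate 3 the count at 6 h fell to 14, and without DMSO replicate 3 to 17. Without DMSO replicate 1 the genes called lower by more than 2-fold at 24 h rose from 5 to 10. Total-read changes of single genes are given below with TMM factors unless stated. At 24 h the change of COX5A was -1.01 with TMM factors and -0.49 without, and that of CYC1 -1.42 and -0.90. Whether smaller changes of single genes pass without TMM factors is not given here.

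In T>C reads the genes spread more, with the middle 50% spanning 0.71 log2 units at 24 h, and the median was near 0 at 2 h. Over the 3 times the median log2 fold change took the values -0.03, -0.39 and -0.91, next to 0.04, -0.28 and -0.69 over the 10086 genes tested. By the 2-fold rule 2 OXPHOS genes were called lower at 2 h (7.14% of all genes), 7 at 6 h (17.1%) and 31 at 24 h (31.2%). Called higher were 0 at 2 h (1.64% of all genes), 1 at 6 h (2.36%) and 0 at 24 h (2.18%). With the adjusted p alone the lower counts were 2, 17 and 39, beside 8.35%, 21.3% and 37.0% of all genes, and the higher counts were 0, 1 and 0, beside 2.38%, 3.02% and 2.79%. An unadjusted p under 0.05 was reached by 1 higher gene at 2 h and by 0 at 24 h, and DESeq2 called 0 higher at both times. Of the 7 genes called lower at 6 h, 5 were also called at 24 h. With the T>C counts as library sizes, 4 genes were called lower at 6 h and 9 at 24 h, with a median of -0.26 at 24 h, and without TMM factors 4 and 11. Of all genes, 11.7% and 14.8% were called lower with the T>C counts as library sizes, and 11.6% and 17.4% without TMM factors. At 24 h the share of OXPHOS genes called lower was thus above that of all genes as scaled here, and below it under both other scalings. The distance of the OXPHOS median at 24 h from that of all genes was -0.22 as scaled here and -0.23 with T>C scaling. Such a change of scaling moves all genes nearly alike, so it cannot test this distance. The distance was -0.12 without DMSO replicate 2, -0.14 without dCBP-30 replicate 2 and -0.33 without the filter on low counts.

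**Figure D2:**
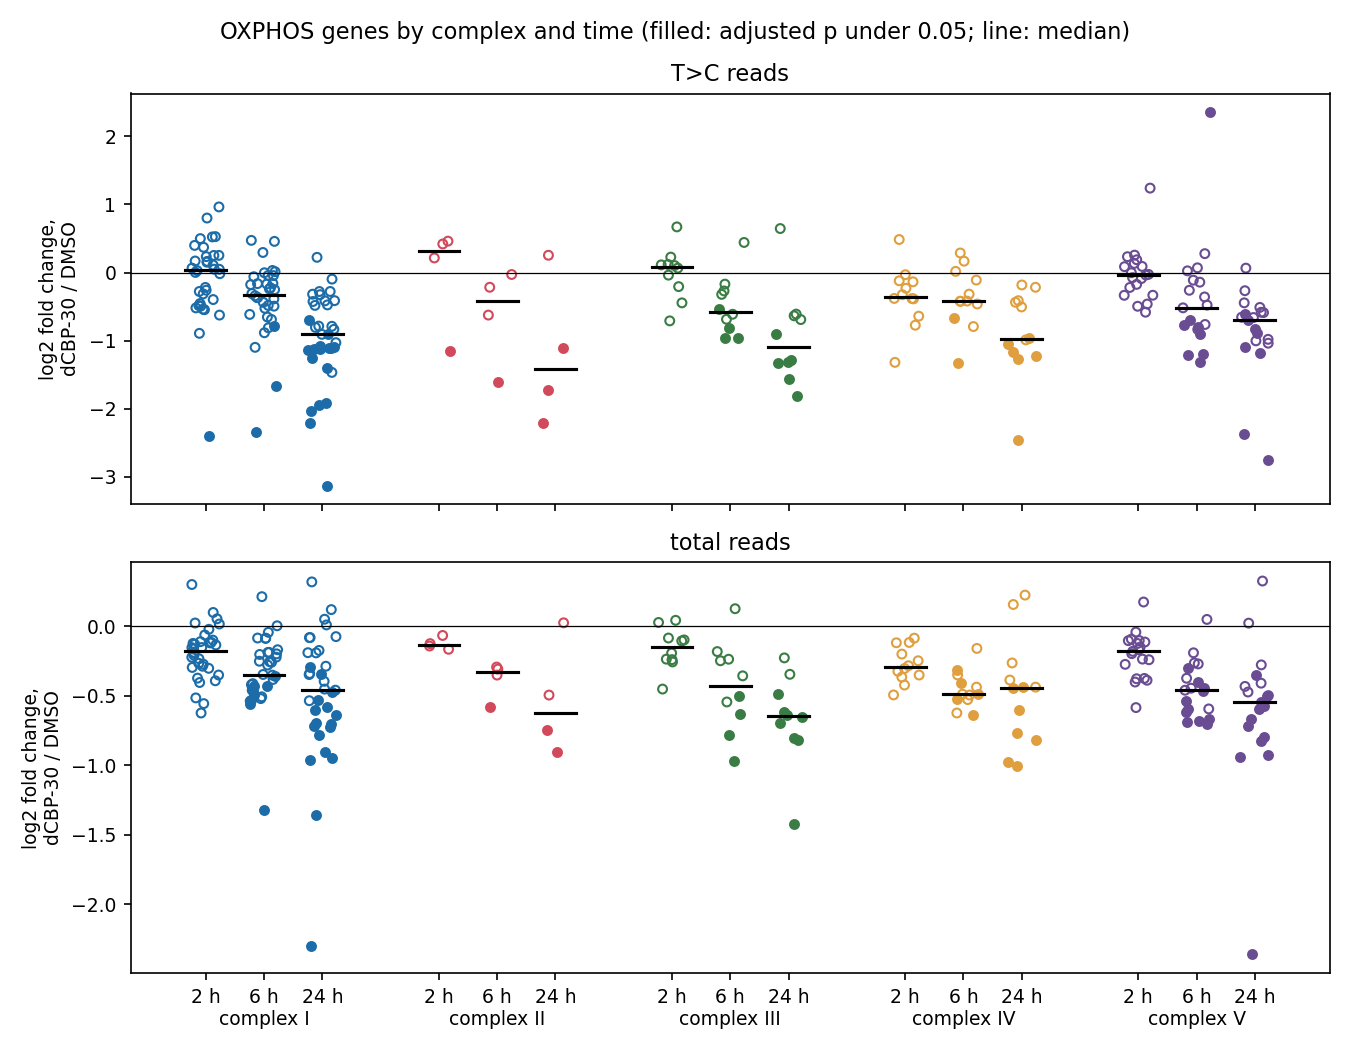
Log2 fold change of dCBP-30 over DMSO (y axis) for each OXPHOS gene in T>C reads (top) and total reads (bottom), by complex and time (x axis); filled points have an adjusted p under 0.05 and the black line is the median of the complex. The medians step down with time in T>C reads in all 5 complexes, and NDUFV2 and ATP5MC1 are the lowest points in total reads at 24 h.

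Whether the change itself differed between times was tested as a difference of differences with adjusted p under 0.05. The 6 h and 24 h differences share the 2 h libraries. In T>C reads 2 OXPHOS genes changed differently at 6 h than at 2 h (8.0% of all genes) and 20 at 24 h than at 2 h (25.9%), and in total reads 1 (15.7%) and 16 (41.1%). All of them were lower at the later time. The differences of NDUFA10, UQCRFS1 and SDHA at 6 h were -2.63 ± 0.69 and -1.07 ± 0.31 in T>C reads and -0.42 ± 0.13 in total reads (log2, SE).

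Labelling of this family was low. Over the 9 DMSO libraries the median share of T>C reads was 3.28% for the OXPHOS genes and 9.93% for the 9393 genes with 500 or more DMSO reads, and 76 of the 79 lay below the latter. Their counted 3′ UTRs had a median length of 334 bases, against 1703 for those genes, and a read covered a median of 21.1 T positions against 24.6. Without 4sU the median share was 0.575%, so that the labelled share was 5.19 times the unlabelled one at the median. For 6 genes it was less than 2 times the unlabelled share, and among these only ATP5MC1 and ATP5F1D were called lower in T>C reads at 24 h.

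By complex, the summed share of T>C reads was lower at 24 h in all 5, given here without a test. For complex I it was 3.55% ± 0.22 under DMSO and 2.75% ± 0.16 under dCBP-30, for complex II 5.98% ± 0.81 and 3.5% ± 0.31, and for complex III 4.03% ± 0.53 and 2.71% ± 0.50 (SD, n = 3). Complex IV went from 2.95% ± 0.22 to 2.27% ± 0.043 and complex V from 3.72% ± 0.029 to 3.14% ± 0.25. Groups did not overlap in any complex at 24 h, and overlapped in all 5 at 2 and 6 h. Over all gene reads of a library the T>C share was lower too, at 8.31% ± 0.27 and 6.38% ± 0.48 at 24 h (SD, n = 3), and there the groups overlapped at none of the 3 times. The ratio of dCBP-30 to DMSO at 24 h was 0.768 over the OXPHOS genes and 0.768 over all genes, so nothing particular to the family is read from it. At 2 and 6 h these ratios were 1.04 and 0.919 for the OXPHOS genes and 0.910 and 0.780 over all genes, a difference that was not tested. The ratio of conversions to T>C reads in the OXPHOS genes was also lower at 24 h, 2.21 ± 0.046 under DMSO and 1.28 ± 0.038 under dCBP-30. It was lower over all genes too, and its part in the lower share was not tested.

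**Figure D3:**
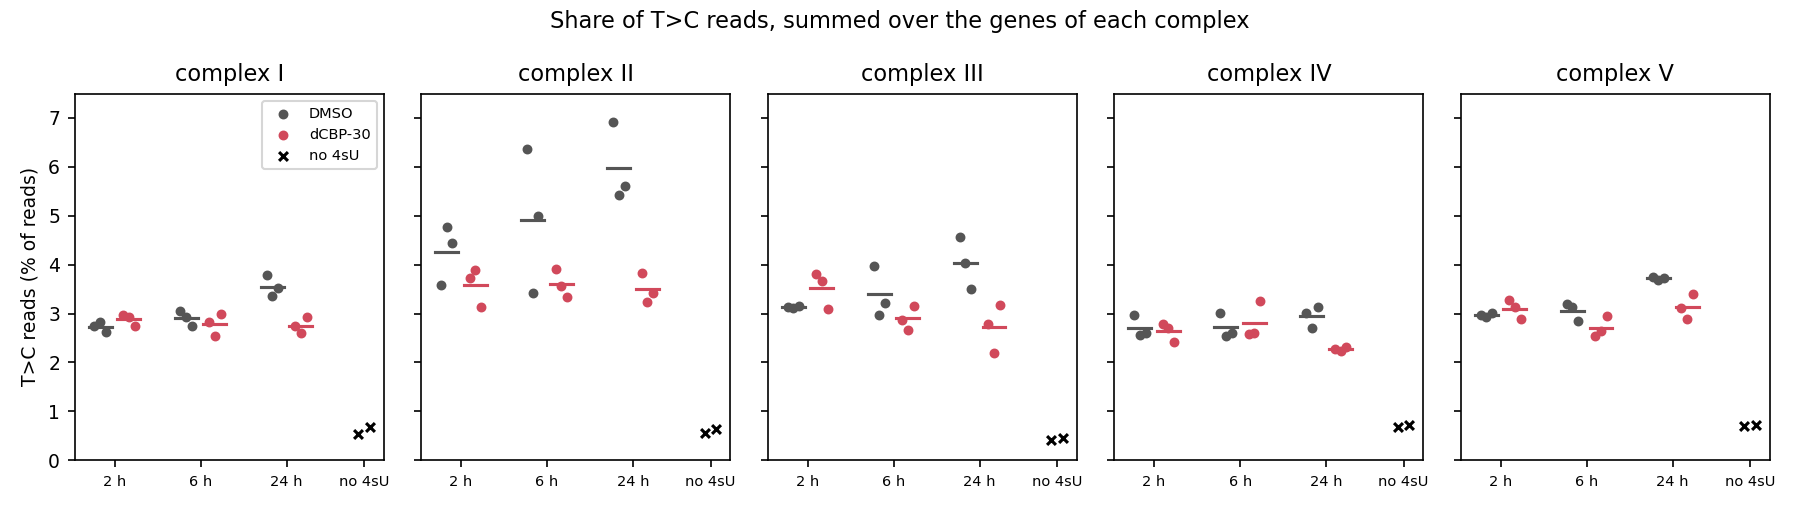
T>C reads as a percentage of reads (y axis), summed over the genes of each complex, in every labelled library at 2, 6 and 24 h and in the 2 libraries without 4sU (crosses); lines are group means, n = 3. At 24 h every dCBP-30 library lies below every DMSO library in all 5 complexes, and the libraries without 4sU lie between 0.420% and 0.727%.

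Complex I, the NADH dehydrogenase, had 34 genes. In T>C reads 1, 2 and 14 of them were called lower at 2, 6 and 24 h, and in total reads 0, 1 and 2. Counts of each complex stand beside the same share of all genes called lower, 7.14%, 17.1% and 31.2% in T>C reads and 1.25%, 8.69% and 16.1% in total reads at the 3 times, and 29.8% in total reads at 24 h by the adjusted p alone. By the adjusted p alone 17 genes of complex I were lower in total reads at 24 h, of which 5 of the 9 genes of the NADH-oxidising N module, 2 of the 5 of the Q module that reduces coenzyme Q, and 10 of the 20 of the membrane-bound P module. The medians in total reads at 24 h were -0.29, -0.39 and -0.49 in the N, Q and P modules.

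NDUFV2, an iron-sulphur subunit of the N module, had the lowest change of all OXPHOS genes at every time in T>C reads. Its counted 3′ UTR lies at chr18:9134280-9134341 (hg38, plus strand). At 2 h it held 15.8, 14.3 and 12.6 T>C RPM under DMSO and 3.28, 2.44 and 2.44 under dCBP-30. The libraries of the 2 groups were far apart already at this time, and the log2 fold change was -2.39 ± 0.28 (SE, edgeR adjusted p = 8.04e-10). At 6 h the levels were 13.7, 15.7 and 12.9 against 2.87, 3.38 and 2.02, and at 24 h 14.1, 12.3 and 18.7 against 1.64, 1.65 and 1.82. These gave -2.35 ± 0.28 (adjusted p = 4.49e-10) and -3.13 ± 0.29 (adjusted p = 1.21e-13), and the levels under dCBP-30 lay below every DMSO library at all 3 times. In its pool the difference widened with time. Total reads were 233, 214 and 163 RPM under DMSO and 142, 104 and 151 under dCBP-30 at 2 h, a log2 change of -0.62 ± 0.19 that did not pass (adjusted p = 0.064). They were 132, 157 and 155 against 72.2, 62.2 and 43.3 at 6 h, and 122, 195 and 205 against 34.3, 37.9 and 33.6 at 24 h. The changes were -1.32 ± 0.19 (adjusted p = 8.32e-06) and -2.30 ± 0.20 (adjusted p = 1.23e-09), and the mean at 24 h was 20.3% of that under DMSO. All of these calls held under every scaling and without each library of the compared groups.

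NDUFV1, which binds NADH and pairs with NDUFV2, was not called at 2 or 6 h. Its T>C level was 2.39, 3.88 and 3.29 RPM under DMSO and 5.44, 3.30 and 3.94 under dCBP-30 at 2 h, with overlapping groups. Only at 24 h was it called lower, by -1.11 ± 0.39 (adjusted p = 0.019) in T>C reads, a call lost under both other scalings (T>C counts as library sizes, or no TMM factors), with background subtraction and without replicate 1 of either group. In total reads it changed by -0.72 ± 0.11 at 24 h (adjusted p = 5.77e-06) without reaching 2-fold. NDUFS1, the largest subunit of the N module, changed by -0.29 ± 0.10 in total reads at 24 h (adjusted p = 0.016) and by -0.43 ± 0.26 in T>C reads (adjusted p = 0.20).

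NDUFS6, an accessory subunit of the N module, was the other complex I gene called lower in total reads at 24 h; it lay outside the rule for named genes and is given because it was among those called. Its total reads were 426, 469 and 477 RPM under DMSO and 185, 175 and 177 under dCBP-30 at 24 h, all dCBP-30 libraries at less than 1 in 2 of the DMSO level. The log2 change was -1.36 ± 0.10 (adjusted p = 2.05e-11), after -0.12 ± 0.10 at 2 h and -0.43 ± 0.10 at 6 h. Without TMM factors it was -0.83, which ended the call. Its T>C reads changed by -2.04 ± 0.34 at 24 h (adjusted p = 1.15e-06).

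At the other end of complex I, NDUFB5, a membrane-arm accessory subunit, had the highest change in total reads, 0.32 ± 0.16 (adjusted p = 0.096), and NDUFC1 the highest in T>C reads, 0.22 ± 0.46 (adjusted p = 0.75). NDUFA10, an accessory subunit of the membrane arm, was called lower in T>C reads at 6 h only. Its T>C reads numbered 60, 40 and 61 under DMSO and 20, 23 and 16 under dCBP-30, a log2 change of -1.67 ± 0.50 (adjusted p = 0.0082) that did not pass when reads were summed over transcripts. At 2 h the value was 0.96 ± 0.48 (adjusted p = 0.23) and rested on counts of 45, 14 and 22 against 32, 93 and 47.

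**Figure D4:**
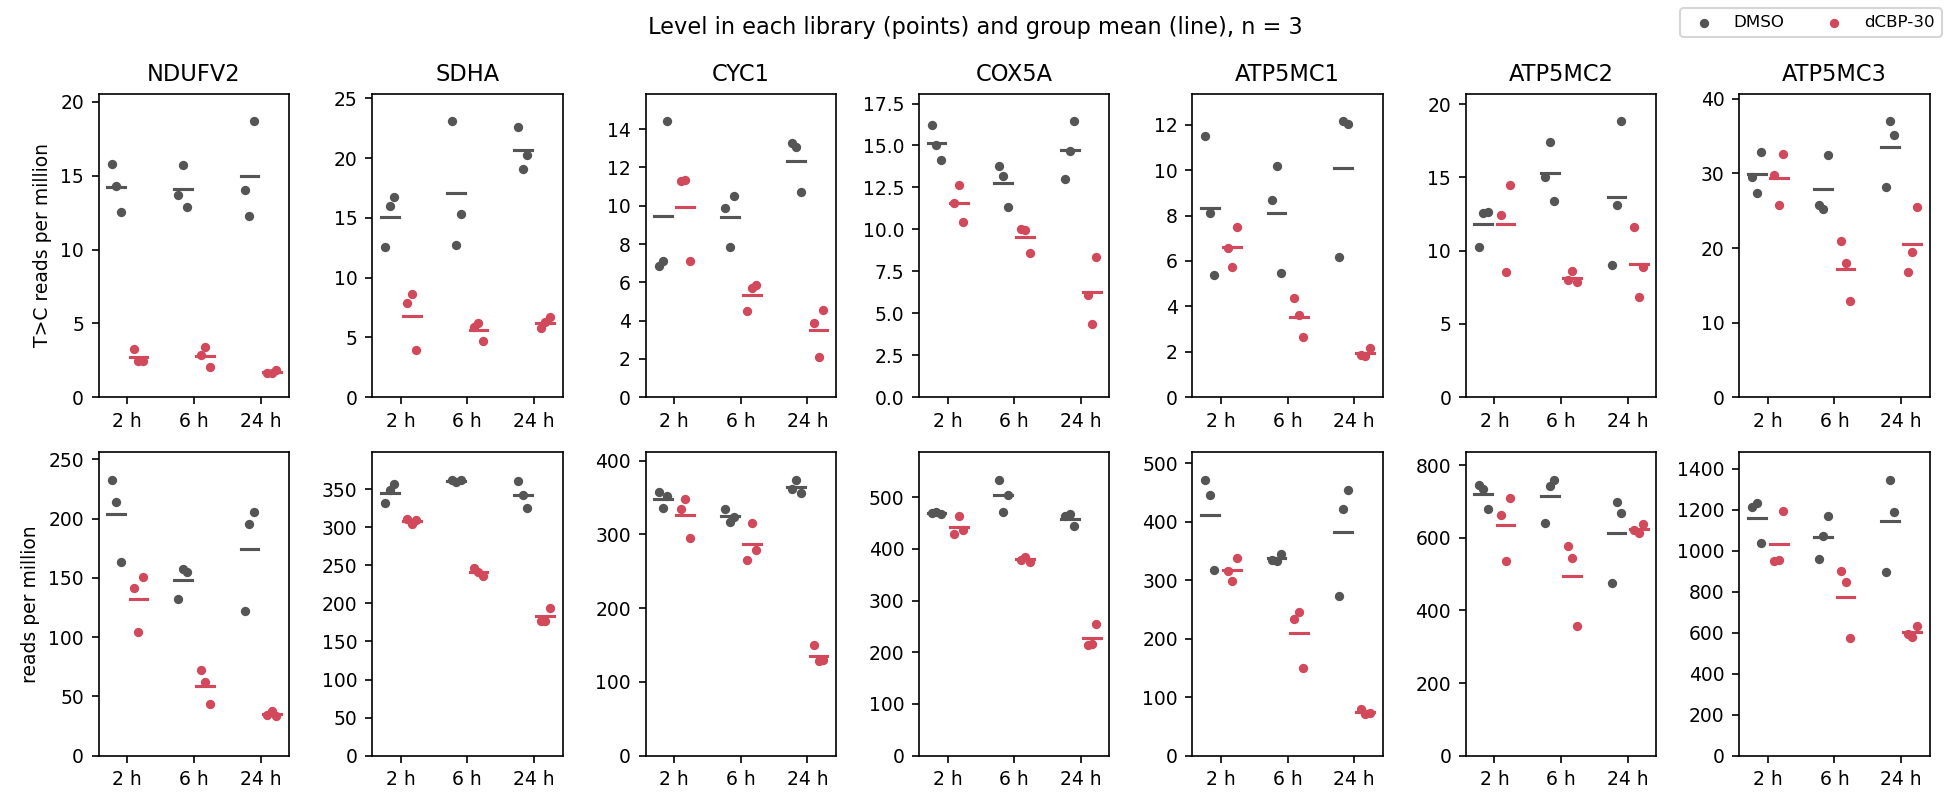
Level of 7 OXPHOS genes in every library (points; lines are group means, n = 3) in RPM, for T>C reads (top) and total reads (bottom), at 2, 6 and 24 h. NDUFV2 and SDHA are separated in T>C reads from 2 h on, CYC1, COX5A and ATP5MC1 reach their lowest level under dCBP-30 at 24 h, and ATP5MC2 has overlapping groups in total reads at 24 h.

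Complex II, the succinate dehydrogenase of the tricarboxylic acid cycle, is encoded entirely in the nucleus by 4 genes. SDHA, its flavoprotein, was the only OXPHOS gene besides NDUFV2 called at 2 h. T>C levels were 12.6, 16.0 and 16.7 RPM under DMSO and 7.85, 8.64 and 3.94 under dCBP-30, with no overlap. The log2 change was -1.15 ± 0.25 (adjusted p = 0.00058), which became -0.87 and lost the call without dCBP-30 replicate 3, the lowest library. It reached -1.60 ± 0.25 at 6 h (adjusted p = 7.14e-07) and -1.73 ± 0.25 at 24 h (adjusted p = 6.91e-08). The pool did not pass at 2 h (-0.16 ± 0.09, adjusted p = 0.371). Total reads at 24 h were 360, 343 and 325 RPM under DMSO and 177, 177 and 195 under dCBP-30, a change of -0.90 ± 0.09 (adjusted p = 3.85e-09), after -0.58 ± 0.09 at 6 h (adjusted p = 9.66e-06). The files count 47.3% as many multimapped reads as reads for SDHA, and its counted 3′ UTR (chr5:256421-257082, hg38, plus strand) overlaps that of another gene, so these values may hold reads of a copy or of that gene. The methods state that multimapping reads were dropped, but whether the deposited read counts still include any is not given in the sources used here, for SDHA or for the other genes with such reads.

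SDHB, the iron-sulphur subunit, was called at 24 h. At 24 h its T>C reads were 4.53, 3.28 and 3.41 RPM under DMSO and 0.767, 0.770 and 0.859 under dCBP-30, which rests on 14, 14 and 16 T>C reads. The log2 change was -2.22 ± 0.51 (adjusted p = 0.00032), against 0.42 ± 0.48 at 2 h. In total reads it changed by -0.75 ± 0.20 at 24 h (adjusted p = 0.0025). SDHC and SDHD anchor the enzyme in the membrane. SDHD was called lower in T>C reads at 24 h, -1.10 ± 0.36 (adjusted p = 0.011), a call lost under both other scalings and without DMSO replicate 1, while SDHC stood at 0.25 ± 0.41 (adjusted p = 0.67). In total reads SDHC was at 132, 160 and 139 RPM under DMSO and 144, 140 and 155 under dCBP-30 at 24 h, with a change of 0.03 ± 0.17 (adjusted p = 0.91), and SDHD at -0.49 ± 0.21 (adjusted p = 0.051). Multimapped reads amounted to 24.7% for SDHC and 38.6% for SDHD, and the SDHC share of T>C reads was only 2.28 times that without 4sU.

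Complex III, the cytochrome bc1 complex, had 10 genes. None was called in T>C reads at 2 or 6 h, and 5 at 24 h. With the adjusted p alone 8 were lower in total reads at 24 h, with a complex median of -0.65, the lowest of the 5 complexes. CYC1, which encodes cytochrome c1, carried the largest change. Its T>C level was 6.87, 7.12 and 14.4 RPM under DMSO and 11.3, 11.3 and 7.13 under dCBP-30 at 2 h, overlapping groups. At 24 h it was 13.3, 13.1 and 10.7 against 3.89, 2.09 and 4.56, a log2 change of -1.81 ± 0.30 (adjusted p = 1.12e-06). Total reads were 334, 317 and 324 against 266, 316 and 279 RPM at 6 h and 361, 374 and 356 against 150, 128 and 129 at 24 h. The change in the pool was thus -0.18 ± 0.10 at 6 h (adjusted p = 0.15) and -1.42 ± 0.10 at 24 h (adjusted p = 1.03e-11), the latter -0.90 and no longer past 2-fold without TMM factors.

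UQCRFS1, the Rieske iron-sulphur protein, changed by 0.10 ± 0.22 in T>C reads at 2 h and by -0.96 ± 0.22 at 6 h (adjusted p = 0.00058) and -0.90 ± 0.22 at 24 h (adjusted p = 0.00068). In total reads it changed by -0.66 ± 0.10 at 24 h (adjusted p = 3.30e-06). Its multimapped reads amounted to 50.7%. UQCR11, a small subunit with the most DMSO reads of the complex, was called lower in T>C reads at 24 h, -1.28 ± 0.20 (adjusted p = 2.11e-07), a call lost under both other scalings. Its total reads stood at -0.23 ± 0.13 (adjusted p = 0.14), the highest of complex III. UQCRHL, a near copy of UQCRH, had the highest change of T>C reads in the complex, 0.65 ± 0.77 (adjusted p = 0.55), from counts of 12, 16 and 10 against 16, 25 and 30. Multimapped reads amounted to only 0.096% for UQCRHL and 0.201% for UQCRH, and whether the 2 genes share reads was not tested.

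Complex IV, cytochrome c oxidase, had 12 genes, with 0, 1 and 5 called lower in T>C reads at 2, 6 and 24 h and 7 lower in total reads at 24 h by the adjusted p alone. COX5A, which lines the matrix face of the enzyme, changed most in total reads. It held 463, 468 and 444 RPM under DMSO and 214, 216 and 254 under dCBP-30 at 24 h, without overlap and with little spread. The log2 change was -1.01 ± 0.09 (adjusted p = 1.43e-09), so close to the 2-fold line that DESeq2 (-0.99), 3 of the left-out libraries and the scaling without TMM factors (-0.49) ended the call. Its T>C reads changed by -1.23 ± 0.24 (adjusted p = 1.97e-05), a call lost under both other scalings. COX4I1, the subunit through which ATP regulates the enzyme, was called lower in T>C reads at 24 h, with 14, 14 and 13.9 RPM under DMSO and 5.75, 6.16 and 6.71 under dCBP-30. Its change was -1.17 ± 0.25 (adjusted p = 8.24e-05), a call lost under both other scalings. In total reads, with TMM factors, the change was -0.45 ± 0.13 (adjusted p = 0.0049).

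COX7C was called in T>C reads at 6 h, -1.32 ± 0.37 (adjusted p = 0.0046), a call lost with background subtraction and without DMSO replicate 1, and stood at -0.51 ± 0.36 at 24 h (adjusted p = 0.28). COX6C had the lowest T>C change at 24 h, -2.46 ± 0.76 (adjusted p = 0.0069), from T>C counts of 21, 43 and 34 against 9, 3 and 9, and lost the call when scaled by T>C reads. COX8A, with the most DMSO reads of the complex, was not called at any time. It held 733, 937 and 831 RPM under DMSO and 944, 896 and 951 under dCBP-30 at 24 h, a change of 0.16 ± 0.11 (adjusted p = 0.23). COX7A2L, a factor that joins respiratory supercomplexes, was the highest of the complex in both measures, with 0.23 ± 0.18 in total reads (adjusted p = 0.295) and -0.18 ± 0.45 in T>C reads (adjusted p = 0.79). NDUFA4 changed by -0.81 ± 0.29 in total reads at 24 h (adjusted p = 0.021) and by -0.44 ± 0.35 in T>C reads (adjusted p = 0.34).

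Complex V, the ATP synthase, had 19 genes, of which 0, 3 and 4 were called lower in T>C reads at 2, 6 and 24 h and 12 were lower in total reads at 24 h by the adjusted p alone. ATP5MC1, ATP5MC2 and ATP5MC3 encode the same mature protein, the c subunit of the rotating ring, behind different targeting sequences. Total reads of ATP5MC1 at 24 h were 274, 423 and 454 RPM under DMSO and 80.5, 70.7 and 72.6 under dCBP-30, a mean of 19.5% of that under DMSO. Those of ATP5MC2 were 475, 698 and 669 against 621, 614 and 637, within the range of DMSO. Those of ATP5MC3 were 898, 1347 and 1187 against 594, 579 and 634. For ATP5MC1, ATP5MC2 and ATP5MC3 in turn the log2 changes were -2.36 ± 0.18 (adjusted p = 1.55e-10), 0.02 ± 0.15 (adjusted p = 0.90) and -0.93 ± 0.15 (adjusted p = 1.01e-05), and the difference between the 3 genes was not itself tested. At 6 h the changes of ATP5MC1, ATP5MC2 and ATP5MC3 had been -0.68 ± 0.17, -0.53 ± 0.15 and -0.46 ± 0.15, each with an adjusted p under 0.05.

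ATP5MC1 stood in T>C reads at 6.15, 12.2 and 12 RPM under DMSO and 1.86, 1.81 and 2.15 under dCBP-30 at 24 h, a log2 change of -2.38 ± 0.34 (adjusted p = 3.52e-08). Its T>C share was 2.36% under DMSO and 1.66% without 4sU, 1.42 times as high, so that its T>C reads largely counted background, and with that background subtracted the call was lost (-2.36). ATP5MC2 stood at -0.90 ± 0.25 at 6 h (adjusted p = 0.0043) and -0.58 ± 0.25 at 24 h (adjusted p = 0.055), and ATP5MC3 at -0.69 ± 0.19 (adjusted p = 0.0039) and -0.70 ± 0.19 (adjusted p = 0.00185).

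In the F1 part, with ATP5PO of the peripheral stalk counted in it, 3 of 6 genes at 6 h and 4 at 24 h were lower in T>C reads by the adjusted p alone. In the membrane-bound Fo part 4 and 3 of 12 were, beside 21.3% and 37.0% of all genes at 6 and 24 h. ATP5F1A, the alpha subunit, had 18, 25.8 and 15.6 T>C RPM under DMSO and 8.73, 9.86 and 6.92 under dCBP-30 at 6 h, and 20.1, 32.7 and 27.3 against 10.7, 12.2 and 12.5 at 24 h. The changes were -1.22 ± 0.22 (adjusted p = 7.32e-06) and -1.18 ± 0.21 (adjusted p = 5.50e-06), under 2-fold with both other scalings, and at 6 h also without DMSO replicate 2. In total reads they were -0.71 ± 0.17 (adjusted p = 0.0022) and -0.66 ± 0.17 (adjusted p = 0.0020). ATP5F1B, the beta subunit with the catalytic sites, changed by -0.80 ± 0.17 and -0.89 ± 0.17 in T>C reads and -0.30 ± 0.11 and -0.35 ± 0.11 in total reads, each with an adjusted p under 0.05. ATP5F1E, the epsilon subunit of the central stalk, was called in T>C reads at 6 h, -1.32 ± 0.41 (adjusted p = 0.012), and at 24 h with overlapping groups, -1.10 ± 0.39 (adjusted p = 0.020). Both calls were lost under both other scalings, the one at 6 h also without dCBP-30 replicate 3 and the one at 24 h without replicate 2 or 3 of either group. Its 3′ UTR overlaps that of TUBB1. ATP5F1D, the delta subunit, had the lowest T>C change of complex V at 24 h, -2.76 ± 0.64 (adjusted p = 0.00037), from 66, 35 and 41 T>C reads against 8, 6 and 11. Its T>C share in the 2 h DMSO libraries, 0.314%, lay below the 0.450% without 4sU. Total reads of ATP5F1D fell by 0.94 ± 0.13 on the log2 scale (adjusted p = 8.76e-07).

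ATP5IF1, the inhibitor of ATP hydrolysis, changed by -0.84 ± 0.21 in T>C reads (adjusted p = 0.0011) and by -0.28 ± 0.12 in total reads at 24 h (adjusted p = 0.051). ATP5MG, a membrane subunit with the most DMSO reads of the complex, changed by -0.61 ± 0.21 in T>C reads (adjusted p = 0.019) and by -0.50 ± 0.25 in total reads (adjusted p = 0.090). The 1 OXPHOS gene called higher was ATP5MGL, a close relative of ATP5MG, in T>C reads at 6 h. It had 1, 5 and 8 T>C reads under DMSO and 24, 34 and 27 under dCBP-30, a log2 change of 2.35 ± 0.64 (adjusted p = 0.0037). Its DMSO share of T>C reads was 8.75% at 6 h but 36.8% at 2 h and 45.3% at 24 h, and 14.5% without 4sU, and its total reads changed by only 0.05 ± 0.32 (adjusted p = 0.91).

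**Figure D5:**
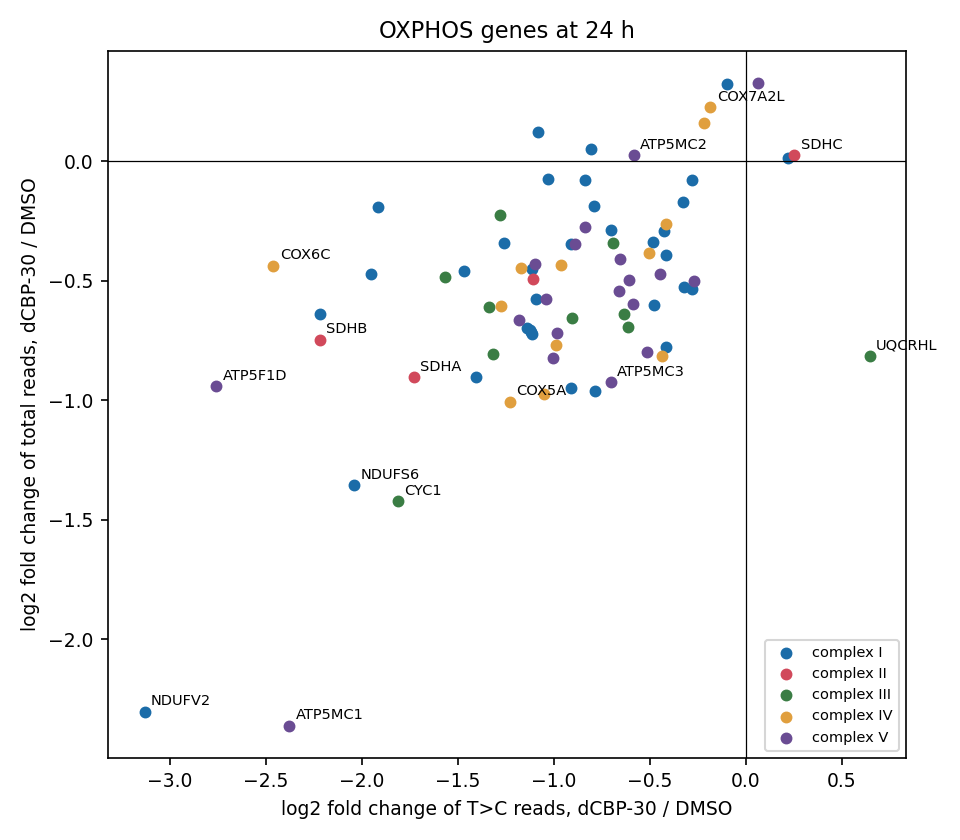
Log2 fold change of T>C reads (x axis) and of total reads (y axis) at 24 h for the 79 OXPHOS genes, coloured by complex. Most points lie below 0 on both axes, with NDUFV2 and ATP5MC1 alone below -2 in total reads, and COX7A2L, ATP5MC2 and SDHC near 0 in total reads.

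At 24 h the measures overlapped in part. Of the 39 genes lower in T>C reads by the adjusted p alone, 28 were also lower in total reads, which are 28 of the 46 lower in total reads, and 22 of the 79 were lower in neither. Of all genes 37.0% were lower in T>C reads and 29.8% in total reads. The share of all genes lower in both is not given here, and T>C reads are part of the total, so nothing particular to the family is read from the overlap. The 5 genes with total reads below 1 in 2 of DMSO were NDUFV2, ATP5MC1, CYC1, NDUFS6 and COX5A, each also called lower in T>C reads. The T>C call of ATP5MC1 was lost with background subtraction and that of COX5A under both other scalings. Without TMM factors 2 of the 5 calls in total reads were kept, those of NDUFV2 and ATP5MC1.

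Other genes of the pathway were counted from lists of known function. The share of all genes called lower at 6 and 24 h was 17.1% and 31.2% in T>C reads and 8.69% and 16.1% in total reads, and that called higher 2.36% and 2.18% in T>C reads and 7.47% and 15.0% in total reads. Of 22 regulators of mitochondrial biogenesis, 4 and then 11 were called lower in T>C reads at 6 and 24 h, with 0 higher, and the median at 24 h was -1.47. Lower calls in total reads numbered 4 at 6 h and 9 at 24 h, and higher calls 1 and 0. PPARGC1B, a coactivator of mitochondrial genes, changed by -4.06 ± 0.42 in T>C reads at 6 h (adjusted p = 4.54e-12) and by -3.29 ± 0.25 in total reads (adjusted p = 5.84e-11). Its relative PPRC1 changed by -2.53 ± 0.42 (adjusted p = 3.32e-05) and -2.12 ± 0.19 (adjusted p = 1.19e-09). The nuclear receptor ESRRA changed by -2.32 ± 0.26 in T>C reads at 6 h (adjusted p = 5.77e-11) and by -1.50 ± 0.24 at 24 h (adjusted p = 4.68e-07). In total reads its values were -0.99 ± 0.14 (adjusted p = 2.90e-06) and -0.29 ± 0.14 (adjusted p = 0.071). PPARGC1A, at 6.97 ± 1.87 RPM under DMSO at 24 h (SD, n = 3), changed by -1.55 ± 0.35 in total reads (adjusted p = 0.000582). TFAM, which packages mitochondrial DNA, changed by -0.97 ± 0.17 in total reads at 24 h (adjusted p = 2.42e-05). The transcription factor NRF1 changed by 0.58 ± 0.15 in total reads at 6 h (adjusted p = 0.0043) and stood at -0.07 ± 0.16 at 24 h (adjusted p = 0.71), and GABPA stood at -0.15 ± 0.28 (adjusted p = 0.70) and -0.01 ± 0.28 (adjusted p = 0.98). MTERF1 was the highest of this list in T>C reads at 24 h, at 0.08 ± 0.59 (adjusted p = 0.93), and changed in total reads by 0.87 ± 0.26 at 6 h (adjusted p = 0.0098) and by 0.68 ± 0.26 at 24 h (adjusted p = 0.026).

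At 24 h the shares of all genes called lower, 31.2% in T>C reads and 16.1% in total reads, and called higher, 2.18% and 15.0%, stand beside each of the next counts. There 21 of 29 mitochondrial import genes were called lower in T>C reads and 17 in total reads, with 0 higher and medians of -1.62 and -1.16. TIMM8A, a chaperone of the intermembrane space, was the lowest at -3.51 ± 0.45 (adjusted p = 2.41e-09) and DNAJC19 the highest at -0.47 ± 0.44 (adjusted p = 0.43) in T>C reads. Of 52 assembly factors tested in T>C reads 19 were called lower and 0 higher at 24 h. In total reads 13 of 53 were called lower and 1 higher. NDUFAF2 was lowest in T>C reads at -4.71 ± 0.97 (adjusted p = 6.60e-05) and NUBPL highest at 2.50 ± 1.12 (adjusted p = 0.070). Both rest on very few T>C reads, with 1.63 and 0.055 RPM under DMSO and dCBP-30 for NDUFAF2 and 0.21 and 1.19 for NUBPL. In total reads they changed by -1.31 ± 0.25 (adjusted p = 7.34e-05) and 0.95 ± 0.25 (adjusted p = 0.0025). Of 19 genes of the tricarboxylic acid cycle 7 were called lower in T>C reads and 3 in total reads at 24 h, with 0 higher, from MPC1 at -1.89 ± 0.68 (adjusted p = 0.022) to IDH3G at 0.25 ± 0.60 (adjusted p = 0.78) in T>C reads. Of 14 genes of cytochrome c and coenzyme Q 4 were called lower and 0 higher in T>C reads, and 3 lower and 3 higher in total reads. CYCS, cytochrome c itself, which carries electrons from complex III to complex IV, changed by -2.35 ± 0.30 in T>C reads (adjusted p = 1.77e-09) and by -1.99 ± 0.20 in total reads (adjusted p = 8.61e-09) at 24 h. PDSS1, which makes the tail of coenzyme Q, changed by -3.96 ± 0.58 in T>C reads (adjusted p = 8.36e-08), from 3.80 to 0.23 RPM. In total reads it changed by -2.89 ± 0.30 (adjusted p = 7.80e-09). COQ10B rose by 1.31 ± 0.21 on the log2 scale in total reads (adjusted p = 7.02e-06).

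Promoters of the OXPHOS genes were read from RefSeq (GRCh38.p14), which held 250 bases before and 50 after the start of 63 of the 79. Short motifs of factors known at such promoters were searched on both strands: the NRF1 core GCATGCGC, the E-box CACGTG bound by MYC and related factors, the ETS core CCGGAAG and the YY1 core AAGATGG. The NRF1 core was found for 13 of the 63 genes (20.6%) and for 4.89% of 15843 protein-coding genes, the ETS core for 21 (33.3%) and 16.5%, the YY1 core for 16 (25.4%) and 7.90%, and the E-box for 7 (11.1%) and 10.9%. ETS and YY1 matches overlapped in 0 of the genes, and 23 held none of the motifs. Medians of the change in total reads at 24 h, with and without a motif, were -0.50 and -0.53 for NRF1, -0.50 and -0.53 for ETS, -0.51 and -0.53 for YY1, and -0.34 and -0.54 for the E-box. A match is a description of letters and does not show binding. The windows below are shown for ATP5MC1 and ATP5MC2, which encode the same protein and lay furthest apart in total reads within complex V but for ATP5MGL, for NDUFS6, and for SDHB, which held 3 of the motifs; each is read on the strand of the gene, with the motif or its reverse complement in capitals.
ATP5MC1, E-box, chr17:48892779-48892808, plus strand: gaaggtccaggaCACGTGggtgggggaagc
ATP5MC2, NRF1 core, chr12:53676105-53676134, minus strand: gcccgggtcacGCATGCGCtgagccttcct
ATP5MC2, NRF1 core at another annotated start, chr12:53676370-53676399, minus strand: gtgtgacgactGCGCATGCtcggaaagggg
NDUFS6, NRF1 core, chr5:1801350-1801379, plus strand: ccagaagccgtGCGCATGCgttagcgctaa
SDHB, NRF1 core, chr1:17054214-17054243, minus strand: aagccaaatggGCATGCGCcgctactgcgc
SDHB, ETS core, chr1:17054142-17054171, minus strand: cacccgggaaaCCGGAAGccgcctcccact
SDHB, YY1 core, chr1:17054004-17054033, minus strand: cgtcaggagccAAGATGGcggcggtggtcg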

How the data were processed

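SLAM-seq was performed on 20 libraries of MM1.S cells. The authors trimmed reads with Trim Galore and ran Slamdunk on hg38 3′ UTRs; poorly aligned and multimapping reads were dropped and values were combined for each transcript. They deposited, per library, unnormalized counts: reads, reads with T>C changes, conversions and the T positions covered. No replicates were pooled. DESeq is also listed in the submitters' processing notes. Reads of the Drosophila spike-in that the methods name were not used here. How the counts were scaled is not given in the sources used here.

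Transcripts were joined by identifier to GENCODE release 44, which matched 89088 of 97466 (91.4%), and each gene was given its transcript with the most reads. The members, lists, motifs and tests were chosen with earlier results of these data known. Tests were run in R 4.3.3 with edgeR 4.0.16 (robust quasi-likelihood fit over the 18 labelled libraries, total reads with TMM factors as library sizes, default filter with a minimum count of 10, Benjamini-Hochberg over all genes tested), with DESeq2 1.42.0 as an alternative and Python 3.11.15 for tables. Calls required an adjusted p under 0.05 and a log2 change beyond 1 in either direction. The standard error is the log2 fold change divided by the root of its F value. The code was tested on simulated data. Depth limits T>C reads most, where the median SE over the members was 0.36 at 24 h, against 0.19 for total reads; intervals and errors cover these samples only.

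Libraries of a group were not copies of each other: chi-square statistics between pairs, over their degrees of freedom, were 8.54 to 50.1. Named genes were, for each complex, the gene with the most DMSO reads and those with the lowest and highest change in T>C and total reads at 24 h (mean of 20 or more counts in the higher group), the largest called changes at 2 and 6 h, a list of core subunits, the genes under the read minimum, and for the other lists the extremes of T>C change at 24 h with a fixed set of regulators and CYCS. A gene under this rule is not reported here. Alternatives were other scalings, DESeq2, separate fits per time, other filters and thresholds, a replicate block, left-out libraries, reads summed over transcripts, subtraction of the T>C share without 4sU, and removal of overlapping genes.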

Additional observations from a re-analysis of the deposited data

Results flagged for a closer look

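The test of a difference between times named OXPHOS genes whose change at 6 or 24 h differed from that at 2 h (adjusted p under 0.05). In T>C reads these were 2 genes at 6 h, NDUFA10 (-2.63) and UQCRFS1 (-1.07), on the log2 scale. At 24 h they were 20 genes, all lower than at 2 h. Among the named genes the differences were -3.996 for ATP5F1D, -2.64 for SDHB, -2.04 for ATP5MC1, -1.99 for NDUFA10, -1.88 for CYC1, -1.51 for NDUFV1, -1.32 for SDHD, -1.24 for UQCR11, -1.14 for COX4I1, -1.01 for UQCRFS1 and -0.71 for ATP5F1B. In the 2 h DMSO libraries the T>C share of ATP5F1D was 0.314%, below the 0.450% without 4sU, and that of ATP5MC1 was 2.01% against 1.66%. In total reads 1 gene differed at 6 h, SDHA (-0.42). At 24 h there were 16, and the differences of the named genes were -1.99 for ATP5MC1, -1.68 for NDUFV2, -1.32 for CYC1, -1.12 for ATP5F1D, -0.92 for COX5A, -0.82 for NDUFV1, -0.76 for ATP5MC3, -0.74 for SDHA and -0.70 for UQCRFS1. NDUFV2 was in the total-read list and not in the T>C list, in which its change was already -2.39 at 2 h.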

How the results depend on the processing

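Scaling had the widest effect. Scaled by T>C reads, and with total reads without TMM factors, the members lower in T>C reads by more than 2-fold were 4 and 4 at 6 h and 9 and 11 at 24 h, those by adjusted p alone 8 and 8 at 6 h and 12 and 17 at 24 h, and those differing from 2 h were 1 and 1 at 6 h and 6 and 8 at 24 h. Of all genes, 11.7% and 11.6% at 6 h and 14.8% and 17.4% at 24 h were lower by the 2-fold rule. By adjusted p alone these shares were 14.7% and 14.4% at 6 h and 18.7% and 21.6% at 24 h. Without TMM factors 2 members were lower in total reads at 24 h by the 2-fold rule (8.62% of all genes). By adjusted p alone lower members numbered 5 at 6 h and 9 at 24 h (11.9% and 17.0% of all genes). Higher members numbered 4 and 15 (36.1% and 49.5% of all genes), against 0 and 0 with TMM factors, and the median at 24 h turned from -0.50 to 0.03. Without a fold cutoff the lower counts were 17 in T>C reads at 6 h and 30 and 46 in total reads at 6 and 24 h. With an adjusted p under 0.1 the differences from 2 h at 6 h numbered 4 in T>C reads and 4 in total reads. Without the filter on low counts the total-read differences numbered 7 at 6 h and 27 at 24 h. Summed over transcripts 1 member differed in T>C reads at 6 h. Without overlapping genes, which drops SDHA, 1 was lower in T>C reads at 2 h and 0 differed in total reads at 6 h, and with background subtraction 1 was higher in T>C reads at 2 h. The ratio of T>C shares, dCBP-30 over DMSO, was 0.919 at 6 h and 0.768 at 24 h, and from conversions on covered T positions 1.01 and 0.439. The causes were not tested.

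With single libraries left out, T>C members lower numbered 1 to 2 at 2 h, 6 to 10 at 6 h and 28 to 34 at 24 h, and total-read members 1 to 2 at 6 h and 4 to 10 at 24 h. By adjusted p alone the total-read counts ranged from 14 to 39 at 6 h and 36 to 61 at 24 h. The differences from 2 h ranged from 1 to 3 and 14 to 22 in T>C reads and from 0 to 4 and 14 to 23 in total reads. The low ends at 6 h came without dCBP-30 replicate 3 and the 10 without DMSO replicate 1. Replicate numbers did not pair the samples: correlations of same-numbered deviations ran from -0.33 to 0.11, and with a replicate block the T>C counts were 2, 7 and 31, the total-read counts 0, 1 and 5, and the differences at 24 h 17 and 15. Low T>C counts limit single members most.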
